A study of Homo sapiens with 12 samples.

Results

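The AP-1 genes FOS, FOSB, FOSL1, FOSL2, JUN, JUNB and JUND were examined together with ATF3 and EGR1, 9 genes taken by name from the 32152 genes of the RPKM table. All 9 had a row, and all 9 were among the 13737 protein-coding genes that were tested. RNA was sequenced from MDA-MB-231 and Hs-578T, established lines of triple-negative breast cancer, with 2 libraries each of parental control, ERK5-ko and MEK5DD cells. ERK5-ko denotes CRISPR/Cas9 knockout of MAPK7, the gene of the kinase ERK5, with guides to exons 3 and 5. The MEK5DD cells carry an always-active MEK5, which phosphorylates ERK5. The MDA-MB-231-ERK5-ko line was 1 surviving clone, which of the Hs-578T-ERK5-ko clones was sequenced is not stated, and no account of how the MEK5DD cells were made is given in the sources used here. Cells were harvested at 70% confluence. Replicates carried consecutive passage labels, 29 and 30 (MDA-MB-231) or 83 and 84 (Hs-578T) in parental controls and 7 to 11 in ERK5-ko and MEK5DD cells. The paper derived the ERK5-ko lines from parental cells at passages above these labels, so engineered and parental labels are not on 1 scale. Against parental controls, genotype and passage cannot be told apart. Hs-578T ERK5-ko and MEK5DD cells shared the labels 8 and 9, but the starting passage of the MEK5DD cells is not stated.

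AP-1 is a dimer of basic leucine zipper proteins, in which a FOS family protein needs a JUN family partner while JUN proteins can also pair with each other. FOS, FOSB, JUNB and EGR1 are immediate early genes, switched on quickly and briefly when growth factors activate MAP kinases, through serum response factor and CREB at their promoters. FOSL1 is also induced by MAP kinase signaling but is expressed stably in mesenchymal breast cancer cells, where it is known for its part in invasion. JUND is the most constitutive JUN gene, ATF3 is a stress-induced member of the ATF/CREB family, and EGR1 is a zinc finger factor outside AP-1. ERK5 is known to activate MEF2 factors, for which the JUN promoter is a classical target.

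The 250 bases before the RefSeq start site (GRCh38.p14) are shown for FOS, FOSB and EGR1, whose replicates differed most, and for JUND and JUN, which carry CRE and MEF2 motifs. Letters in capitals mark TGACGT on either strand (most of a cyclic AMP response element, the CREB and ATF motif), the CArG box (the motif of serum response factor) and the MEF2 site. The windows were chr14:75278578-75278827 (FOS, plus strand), chr19:45467746-45467995 (FOSB, plus strand), chr5:138465229-138465478 (EGR1, plus strand), chr19:18281623-18281872 (JUND, minus strand) and chr1:58784048-58784297 (JUN, minus strand), each written 5′ to 3′ on the gene's own strand.
FOS: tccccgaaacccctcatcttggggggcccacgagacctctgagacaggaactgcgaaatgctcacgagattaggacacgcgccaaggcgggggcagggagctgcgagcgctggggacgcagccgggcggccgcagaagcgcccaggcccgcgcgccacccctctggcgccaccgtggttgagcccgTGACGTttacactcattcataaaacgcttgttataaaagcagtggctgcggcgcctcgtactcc
FOSB: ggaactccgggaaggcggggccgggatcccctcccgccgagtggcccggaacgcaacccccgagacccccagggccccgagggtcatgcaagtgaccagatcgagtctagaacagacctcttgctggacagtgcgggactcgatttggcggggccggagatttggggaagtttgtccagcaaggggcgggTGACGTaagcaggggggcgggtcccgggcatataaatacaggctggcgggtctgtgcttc
EGR1: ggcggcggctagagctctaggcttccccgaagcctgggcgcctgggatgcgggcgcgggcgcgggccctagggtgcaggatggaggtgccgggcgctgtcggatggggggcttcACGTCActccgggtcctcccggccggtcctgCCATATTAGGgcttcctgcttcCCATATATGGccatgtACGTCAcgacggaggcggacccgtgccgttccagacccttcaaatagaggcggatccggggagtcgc
JUND: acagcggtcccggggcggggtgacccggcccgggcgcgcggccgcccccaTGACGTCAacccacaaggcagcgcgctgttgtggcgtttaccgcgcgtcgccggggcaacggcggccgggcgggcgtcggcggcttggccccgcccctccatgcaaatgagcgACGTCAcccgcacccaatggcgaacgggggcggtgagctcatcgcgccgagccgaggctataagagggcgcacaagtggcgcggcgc
JUN: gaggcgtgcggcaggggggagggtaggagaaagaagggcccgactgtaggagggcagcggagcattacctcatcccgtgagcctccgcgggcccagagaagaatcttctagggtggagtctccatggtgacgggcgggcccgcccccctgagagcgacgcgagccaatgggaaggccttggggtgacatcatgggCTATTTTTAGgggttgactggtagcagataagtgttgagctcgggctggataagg

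A window was found for 8 of the 9 genes, 9 windows in all since ATF3 has 2 start sites. TGACGT lay in the windows of FOS, FOSB, FOSL2, JUND and EGR1, 5 of 9, against 7.10% of all 35116 windows of this length. In FOS, FOSB and FOSL2 it began 60 to 66 bases before the start site. The matches on both strands that begin 200 bases before the JUND start overlap as TGACGTCA. The CArG box was in the EGR1 window alone among these genes, at 2 places, and in 1.16% of all windows. The MEF2 site was in the JUN window alone, 55 to 46 bases before the start, and in 2.80% of all windows. The AP-1 motif TGANTCA was in none of the 9 windows and in 6.57% of all. These matches describe the letters of the windows, not bound sites, and do not cover bases further upstream or variants of a motif.

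Values are RPKM, reads scaled to gene model length and library size, deposited by the authors. Library totals recovered from them were 20248162 to 27791195 reads. Mean MAPK7 RPKM was 17.0 in the libraries labelled ERK5-ko and 13.8 in parental controls of MDA-MB-231 (log2 fold change 0.29, adjusted p = 0.0709), and 17.95 and 15.0 in Hs-578T (0.26, adjusted p = 0.0624). The targeted RNA thus gave no check of these labels, and every direction for these libraries refers to them. The authors reported loss of ERK5 protein in both knockout lines by Western blot, which RNA values cannot show. MAP2K5, the gene of MEK5, was higher in those labelled MEK5DD by 3.77 and 0.50 on the log2 scale (adjusted p = 3.31e-10 and 0.00492). VIM (1598 to 4067 RPKM) and CD44 (819 to 1696 RPKM) were high in every library and the hormone receptor genes ESR1 and PGR were at most 0.348 RPKM. ERBB2, the other receptor gene by which triple-negative tumors are defined, was 36.9 to 56.8 RPKM in MDA-MB-231 and 27.8 to 43.8 RPKM in Hs-578T. EPCAM was 7.08 to 25.7 RPKM in MDA-MB-231 and at most 0.0862 RPKM in Hs-578T. CDH1, the other epithelial marker examined, was low in both, at most 0.650 RPKM in MDA-MB-231 and 1.16 RPKM in Hs-578T. CD3E and CDH5, markers of T cells and endothelium, were at most 0.0259 RPKM, and PTPRC was at most 0.396 RPKM. PECAM1 reached 6.48 RPKM in Hs-578T, and CD68, which tumor lines also express, was 23.2 to 108 RPKM.

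A gene passed the test at an adjusted p under 0.05 (limma on log2(RPKM + 0.5)). It was called higher if its fold was also above 1.5, and lower if its fold was also below 0.5. An exact two-sided permutation test on 1 gene cannot give a p below 0.333 with 2 libraries a group, so the spread was shared over all 12 libraries. Whether replicates were separate cultures is not stated beyond their passages, and p-values measure only the spread between these libraries.

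FOSL1 (ENSG00000175592.8, chromosome 11, 65892049 to 65900573, minus strand), which encodes FRA-1, was the most abundant of the 9 genes in MDA-MB-231. Its RPKM in MDA-MB-231 was 311 and 329 in parental controls, 204 and 234 in ERK5-ko and 425 and 449 in MEK5DD libraries. Its Hs-578T values were 48.6 and 48.5 in parental controls, 119 and 118 in ERK5-ko and 42.9 and 46.3 in MEK5DD libraries. The 3 groups did not overlap in either line. ERK5-ko libraries were thus the lowest in MDA-MB-231 and the highest in Hs-578T. The log2 fold change of ERK5-ko against parental was -0.55 in MDA-MB-231 (SE 0.0903, adjusted p = 0.0019). In Hs-578T it was 1.27 (adjusted p = 1.7e-06), and FOSL1 was called higher (2.42-fold). MEK5DD libraries were higher than parental ones by 0.45 (log2, adjusted p = 0.00195) in MDA-MB-231. In Hs-578T the MEK5DD difference was -0.12 (95% interval -0.32 to 0.08, adjusted p = 0.363). Both responses differed between the lines, the ERK5-ko response by -1.82 (log2, MDA-MB-231 minus Hs-578T, adjusted p = 2.72e-06) and the MEK5DD response by 0.57 (adjusted p = 0.00443). MAP2K5 RNA itself rose by 3.77 (log2) in MDA-MB-231 MEK5DD and by 0.50 in Hs-578T MEK5DD libraries. The part of this unlike rise in the MEK5DD difference was not tested. FOSL1 in parental MDA-MB-231 exceeded that in parental Hs-578T 6.53-fold (adjusted p = 1.1e-10).

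JUND (ENSG00000130522.5, chromosome 19, 18279760 to 18281622, minus strand) moved the other way from FOSL1 in each ERK5-ko line. Its RPKM in MDA-MB-231 was 84.8 and 78.2 in parental controls, 131 and 135 in ERK5-ko and 46.7 and 50.8 in MEK5DD libraries. In Hs-578T it was 79.9 and 89.9 in parental controls, 65.5 and 61.7 in ERK5-ko and 74.6 and 98.02 in MEK5DD libraries. In MDA-MB-231 the 3 groups were apart, with ERK5-ko above and MEK5DD below the parental controls. In Hs-578T only the ERK5-ko libraries lay apart, below the others. JUND was called higher in MDA-MB-231 ERK5-ko libraries (log2 fold change 0.71, SE 0.122, adjusted p = 0.00259) and fell in Hs-578T ones by 0.41 on the log2 scale (adjusted p = 0.0197). It fell by 0.74 (adjusted p = 0.000514) in MDA-MB-231 MEK5DD libraries. The MEK5DD difference in Hs-578T was 0.01 (95% interval -0.25 to 0.28, adjusted p = 0.961). Between the lines the ERK5-ko response differed by 1.117 (log2, adjusted p = 0.000455) and the MEK5DD response by -0.75 (adjusted p = 0.00529). The Hs-578T fall no longer passed without parental replicate 2 (adjusted p = 0.0986), without ERK5-ko replicate 1 (0.0547) or replicate 2 (0.124), or when Hs-578T was fitted alone (0.107). Parental levels of the lines overlapped. As for FOSL1, the part of the unlike MAP2K5 rise in the MEK5DD difference between the lines was not tested.

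**Figure D1:**
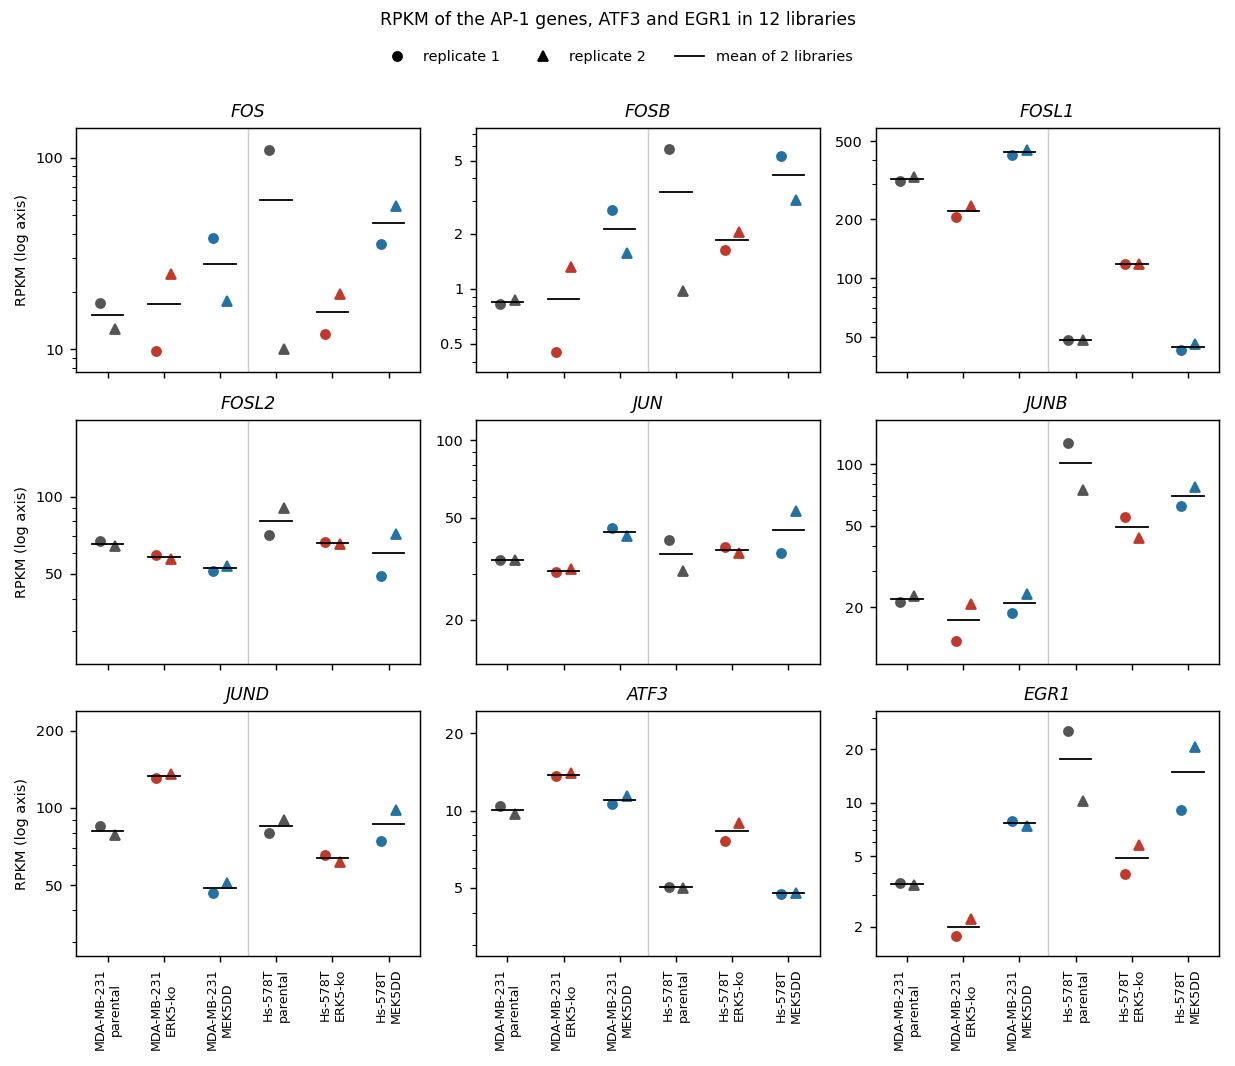
RPKM on a log axis of each of the 9 genes in 12 libraries, with circles for replicate 1, triangles for replicate 2 and bars for the mean of the 2 libraries. FOSL1 and JUND replicates sit close together and their groups are apart in MDA-MB-231, whereas FOS in Hs-578T parental controls runs from 10.1 to 110 RPKM.

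ATF3 (ENSG00000162772.16, chromosome 1, 212565334 to 212620777, plus strand) was higher in ERK5-ko libraries of both lines. Its RPKM in MDA-MB-231 was 10.4 and 9.67 in parental controls, 13.6 and 14.0 in ERK5-ko and 10.6 and 11.4 in MEK5DD libraries. Its Hs-578T values were 5.04 and 5.01 in parental controls, 7.64 and 8.95 in ERK5-ko and 4.73 and 4.79 in MEK5DD libraries. All 4 ERK5-ko libraries were above the other libraries of their line. The log2 fold change against parental controls was 0.44 in MDA-MB-231 (SE 0.104, adjusted p = 0.014). In Hs-578T it was 0.67 (adjusted p = 0.000477), and ATF3 was called higher. The MDA-MB-231 change no longer passed without any one of the 4 libraries compared (adjusted p between 0.0584 and 0.128). The responses of the lines differed by -0.23 (95% interval -0.55 to 0.10, adjusted p = 0.242). The MEK5DD difference from parental was 0.12 (adjusted p = 0.391) in the MDA-MB-231 line. It was -0.07 (adjusted p = 0.668) in the Hs-578T line. The level in parental MDA-MB-231 was 1.91-fold that in parental Hs-578T (adjusted p = 6.13e-06).

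EGR1 (ENSG00000120738.7, chromosome 5, 138465490 to 138469315, plus strand) was lowest in ERK5-ko libraries of both lines. Its RPKM in MDA-MB-231 was 3.52 and 3.43 in parental controls, 1.78 and 2.21 in ERK5-ko and 7.89 and 7.44 in MEK5DD libraries. In Hs-578T it was 25.2 and 10.2 in parental controls, 3.99 and 5.79 in ERK5-ko and 9.15 and 20.7 in MEK5DD libraries. The MDA-MB-231 groups were apart and in the order ERK5-ko, parental, MEK5DD. In Hs-578T the parental and MEK5DD libraries overlapped, and both ERK5-ko libraries lay below them. EGR1 was called lower in Hs-578T ERK5-ko libraries, with a log2 fold change of -1.65 (SE 0.387, adjusted p = 0.00598). Without the high parental replicate 1 the value was -1.02 (adjusted p = 0.0493). It did not pass without ERK5-ko replicate 1 (adjusted p = 0.0591) or with Hs-578T fitted alone (adjusted p = 0.0754). In MDA-MB-231 the ERK5-ko difference was -0.68 (95% interval -1.53 to 0.17, adjusted p = 0.269) and the MEK5DD difference 1.04 (0.19 to 1.89, adjusted p = 0.0508). Fitted on the MDA-MB-231 libraries alone, where the wide Hs-578T spread did not enter, both passed (adjusted p = 0.0126 and 0.00153). Leaving out any one of the 4 Hs-578T parental or MEK5DD libraries kept this MEK5DD difference at 1.04, since these libraries enter only the shared spread. Over all settings tried, omissions included, it ran from 0.95 to 1.14 and did not always pass. ERK5-ko was called lower than MEK5DD in both lines, by -1.72 (adjusted p = 0.00272) and -1.43 (adjusted p = 0.0099) on the log2 scale. The Hs-578T value did not pass without ERK5-ko replicate 1 (adjusted p = 0.0851), without MEK5DD replicate 2 (0.0826) or with that line alone (0.0859).

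JUNB (ENSG00000171223.5, chromosome 19, 12791496 to 12793315, plus strand) was higher in Hs-578T than in MDA-MB-231. Its RPKM in MDA-MB-231 was 21.4 and 22.7 in parental controls, 13.8 and 20.9 in ERK5-ko and 18.9 and 23.4 in MEK5DD libraries. In Hs-578T it was 127 and 74.9 in parental controls, 55.4 and 43.4 in ERK5-ko and 62.5 and 76.8 in MEK5DD libraries. Every Hs-578T library was above every MDA-MB-231 library. The Hs-578T ERK5-ko libraries were below the parental ones by a log2 fold change of -0.98 (SE 0.244, adjusted p = 0.00807), just inside the fold of 0.5 needed for a call. The value was -0.61 without parental replicate 1 (adjusted p = 0.0709) and -0.81 without ERK5-ko replicate 2 (adjusted p = 0.0901), and neither passed. It did not pass with Hs-578T fitted alone (adjusted p = 0.0507). In MDA-MB-231 the difference was -0.37 (95% interval -0.90 to 0.17, adjusted p = 0.346). Parental MDA-MB-231 was 4.34-fold lower than parental Hs-578T (adjusted p = 8.08e-06).

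JUN (ENSG00000177606.6, chromosome 1, 58780788 to 58784327, minus strand), the founding JUN gene, kept within 30.6 to 52.9 RPKM over all 12 libraries. In MDA-MB-231 it was 34.1 and 34.2 in parental controls, 30.6 and 31.5 in ERK5-ko and 45.4 and 42.3 in MEK5DD libraries, so the groups were apart. Hs-578T values were 41.0 and 31.0 in parental controls, 38.3 and 36.3 in ERK5-ko and 36.3 and 52.9 in MEK5DD libraries, and the groups overlapped. ERK5-ko was below MEK5DD in MDA-MB-231 by a log2 fold change of -0.49 (adjusted p = 0.0222), which no longer passed without any one of the 4 libraries compared (adjusted p between 0.0576 and 0.117). The MDA-MB-231 MEK5DD difference from parental was 0.35 (adjusted p = 0.102), and with that line fitted alone it passed (adjusted p = 0.00391). Leaving out either Hs-578T MEK5DD library kept it at 0.35, since these libraries enter only the shared spread. Over all settings tried, omissions included, it ran from 0.30 to 0.41 and did not always pass. Without Hs-578T MEK5DD replicate 1, the Hs-578T MEK5DD difference from parental was 0.56 and ERK5-ko was below MEK5DD by -0.50. Over the same settings these values ran from 0.026 to 0.56 and from -0.50 to 0.039.

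FOSL2 (ENSG00000075426.11, chromosome 2, 28392448 to 28417312, plus strand), which encodes FRA-2, passed none of the 9 comparisons with all libraries and the settings given above. Its RPKM in MDA-MB-231 was 66.9 and 64.1 in parental controls, 59.2 and 57.0 in ERK5-ko and 51.4 and 53.7 in MEK5DD libraries. In Hs-578T it was 70.5 and 90.3 in parental controls, 66.3 and 65.2 in ERK5-ko and 49.1 and 71.2 in MEK5DD libraries. The MDA-MB-231 groups were apart with MEK5DD lowest, and the Hs-578T MEK5DD and parental libraries overlapped. The MEK5DD difference from parental was -0.32 (95% interval -0.65 to 0.02, adjusted p = 0.127) in MDA-MB-231 and -0.43 (-0.77 to -0.09, adjusted p = 0.0663) in Hs-578T. Both passed in a fit that blocked on replicate number (adjusted p = 0.0415 and 0.0169). With MDA-MB-231 fitted alone, the MEK5DD and ERK5-ko differences from parental both passed (adjusted p = 0.00415 and 0.0442). Without Hs-578T MEK5DD replicate 2, the Hs-578T MEK5DD difference was -0.69 and ERK5-ko was above MEK5DD there by 0.42. Over all settings tried, omissions included, these values ran from -0.69 to -0.16 and from -0.11 to 0.42. The MDA-MB-231 MEK5DD difference ran from -0.35 to -0.28 and did not always pass. Between the parental controls FOSL2 was lower in MDA-MB-231 under median-ratio (-0.47, adjusted p = 0.014) and quantile (-0.42, adjusted p = 0.0269) scaling.

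FOS (ENSG00000170345.9, chromosome 14, 75278774 to 75282230, plus strand) and FOSB (ENSG00000125740.13, chromosome 19, 45467995 to 45475179, plus strand), the serum-responsive FOS genes, passed none of the 9 comparisons. FOS RPKM in MDA-MB-231 was 17.6 and 12.8 in parental controls, 9.86 and 24.7 in ERK5-ko and 38.0 and 17.9 in MEK5DD libraries. In Hs-578T FOS was 110 and 10.1 in parental controls, 12.03 and 19.5 in ERK5-ko and 35.5 and 55.9 in MEK5DD libraries. The Hs-578T parental controls held both the highest value of that line and the lowest. FOSB RPKM in MDA-MB-231 was 0.828 and 0.864 in parental controls, 0.454 and 1.31 in ERK5-ko and 2.68 and 1.56 in MEK5DD libraries. In Hs-578T FOSB was 5.81 and 0.969 in parental controls, 1.62 and 2.05 in ERK5-ko and 5.33 and 3.05 in MEK5DD libraries. For both genes the MEK5DD libraries were above both parental controls in MDA-MB-231 and above both ERK5-ko libraries in Hs-578T. The MEK5DD difference from parental in MDA-MB-231 was 0.78 for FOS (95% interval -1.04 to 2.60, adjusted p = 0.499) and 0.93 for FOSB (-0.25 to 2.103, adjusted p = 0.192). In Hs-578T the ERK5-ko difference from parental was -1.11 for FOS (-2.93 to 0.71, adjusted p = 0.313) and -0.39 for FOSB (-1.56 to 0.79, adjusted p = 0.595). The depth was 208 to 2510 reads a library for FOS and 26 to 337 for FOSB.

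**Figure D2:**
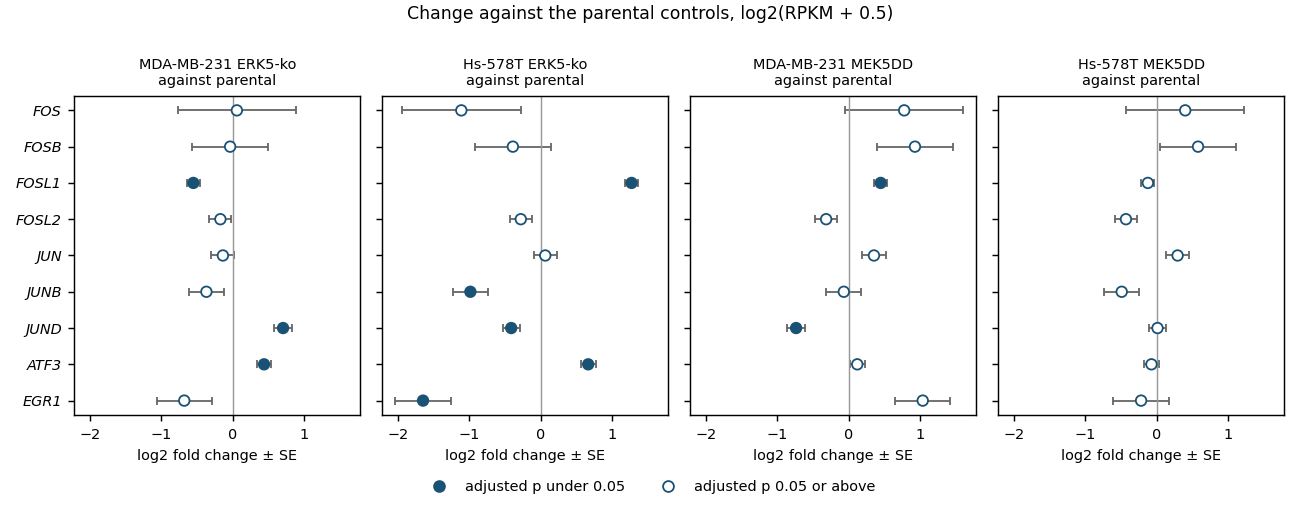
Log2 fold change against the parental controls of the same line with its standard error, for the 9 genes in 4 comparisons, where filled points passed the test. The standard errors of FOS (0.829) and FOSB (0.535) exceed that of FOSL1 (0.0903).

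The Hs-578T parental replicates decided the direction of FOS and FOSB in Hs-578T. Without parental replicate 1, the log2 fold change of MEK5DD against parental was 2.09 for FOS (adjusted p = 0.0201) and 1.63 for FOSB (adjusted p = 0.014). Without parental replicate 2 these values were -1.29 and -0.47 and did not pass. The ERK5-ko differences without parental replicate 2 were -2.80 for FOS (adjusted p = 0.00218) and -1.44 for FOSB (adjusted p = 0.0119). Without parental replicate 1 they were 0.58 and 0.66 and did not pass. ERK5-ko was below MEK5DD in Hs-578T by -1.51 (log2) for FOS and -0.97 for FOSB. The parental replicates enter this comparison only through the shared spread, so leaving 1 out could not change these values. Over all settings tried, omissions included, these ran from -1.85 to -1.17 and from -1.33 to -0.61. In MDA-MB-231, the FOSB difference of MEK5DD from parental stayed 0.93 under the same omissions, which changed only the shared spread. Over all settings it ran from 0.61 to 1.24 and did not always pass.

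FOS varied more between replicates than any other of the 13737 tested genes, with a standard deviation within groups of 1.13 on the log2 scale. FOSB ranked 3 (0.722), EGR1 ranked 18 (0.515) and JUNB ranked 248 (0.319), while the median of all tested genes was 0.124. JUN (0.197) and FOSL2 (0.187) were above that median. JUND (0.135) was near it, and ATF3 (0.0756) and FOSL1 (0.0734) were below it.

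Replicates were next compared on the log2(RPKM + 0.5) scale against a limit of 2-fold, and ratios are given as RPKM. In Hs-578T parental controls 3 of the 9 genes differed more than 2-fold, against 0.546% of all tested genes. They were FOS (10.9-fold), FOSB (5.99-fold) and EGR1 (2.46-fold), and each was higher in replicate 1, as was JUNB (1.69-fold). FOS and FOSB had the 2 largest differences of all tested genes there. FOS differed 2.51-fold between MDA-MB-231 ERK5-ko replicates, the largest difference of all genes, where 1 of 9 genes passed 2-fold against 0.0218%. FOSB differed 2.89-fold in RPKM there, which on the log2(RPKM + 0.5) scale was 0.92 and under the limit. In MDA-MB-231 MEK5DD cells FOS differed 2.12-fold, again 1 of 9 against 0.0218%. In Hs-578T MEK5DD cells EGR1 differed 2.26-fold, 1 of 9 against 0.342%. The largest differences of that pair were in mitochondrial genes, MT-ND6 and MT-ND4 (2.13 and 1.85 on the log2 scale, higher in replicate 1), and their part in the results was not tested. No member differed by 2-fold in MDA-MB-231 parental controls (0.00728% of all genes) or Hs-578T ERK5-ko cells (0.0218%). Which replicate was higher was not the same for every gene or group. FOS was higher in replicate 1 of MDA-MB-231 MEK5DD but in replicate 2 of MDA-MB-231 ERK5-ko libraries. In Hs-578T MEK5DD, FOSB was higher in replicate 1 while FOS and EGR1 were higher in replicate 2.

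**Figure D3:**
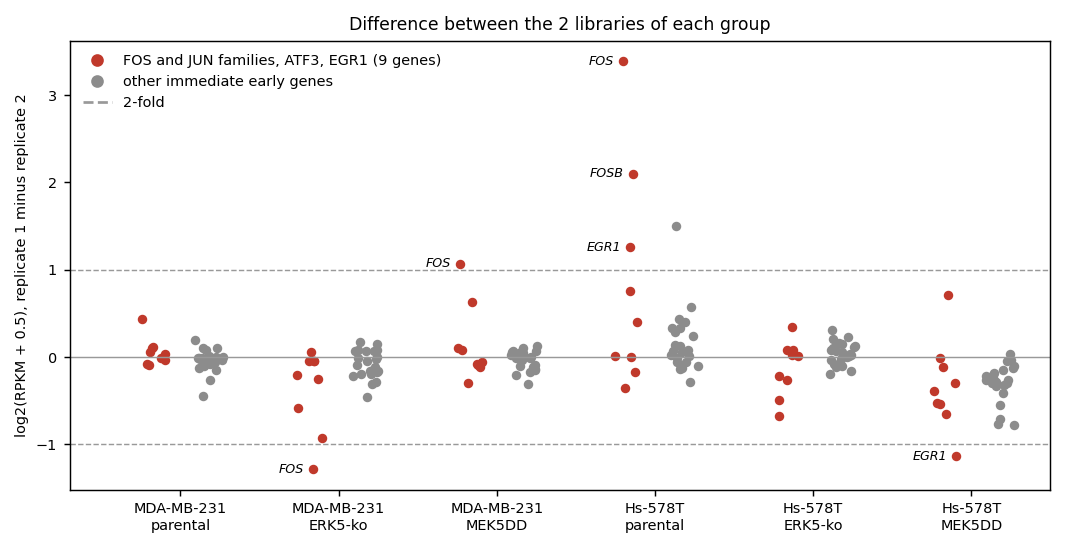
Difference between replicate 1 and replicate 2 of each group in log2(RPKM + 0.5), for the 9 genes (red) and 23 other immediate early genes (gray), with dashed lines at 2-fold. In Hs-578T parental controls FOS, FOSB and EGR1 lie above the upper line, as does 1 gray point, DUSP1.

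Of 23 other immediate early genes tested, 1 differed more than 2-fold in any group, DUSP1 in Hs-578T parental controls. DUSP1, a phosphatase of MAP kinases, was 30.9 RPKM in replicate 1 and 10.6 RPKM in replicate 2. None of 9 stress genes (heat shock, DDIT and GADD45 genes and the like) differed by 2-fold in any group. Their summed RPKM was 573 and 535 in Hs-578T parental controls and 533 to 780 over all libraries. ERCC1, within which FOSB lies on the opposite strand, was 153 and 136 RPKM in the Hs-578T parental controls. HOOK2, which covers JUNB on the opposite strand, was 20.5 and 19.7 RPKM there. The replicate difference of neither overlapping gene exceeded 1.19-fold in any group. The libraries were made with a stranded kit, but how strand entered the counting is not stated, so shares of reads in these overlaps remain uncertain. FOSL2 also overlaps an antisense RNA by 2225 bases.

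The levels of the 9 genes were ordered by mean RPKM. In MDA-MB-231 parental controls the order was FOSL1, JUND, FOSL2, JUN, JUNB, FOS, ATF3, EGR1 and FOSB, with no overlap between neighbours. In MDA-MB-231 ERK5-ko cells this order held, but the libraries of FOS overlapped those of JUNB and ATF3. In MDA-MB-231 MEK5DD cells FOSL2 came before JUND and FOS before JUNB, the latter pair overlapping. In Hs-578T parental controls the order was JUNB, JUND, FOSL2, FOS, FOSL1, JUN, EGR1, ATF3 and FOSB, and each of the first 5 overlapped its neighbour among them. In Hs-578T ERK5-ko cells FOSL1 came first and lay apart from the next gene, FOSL2. In Hs-578T MEK5DD cells JUND, JUNB, FOSL2, FOS, FOSL1 and JUN overlapped in turn. The gene models behind RPKM are shorter than the longest GENCODE 29 transcript for several genes, 998 against 2158 bases for FOS, for example. Scaled to the longest transcript instead, FOSL1 ranked first in the same 4 groups, Hs-578T ERK5-ko and all 3 of the other line, but other ranks moved. FOSL2 went from rank 3 to 4, below JUN, in MDA-MB-231 parental controls and from 2 to 5 in Hs-578T ERK5-ko cells. JUN went from rank 4 to 2 in MDA-MB-231 MEK5DD cells, and ATF3 passed FOS in MDA-MB-231 ERK5-ko cells. The order below FOSL1 thus depended on the length used.

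The makeup of the FOS family differed between the lines. FOSL1 made up 79.7% of summed FOS family RPKM in MDA-MB-231 parental controls (mean of 78.5% and 80.9%), 74.2% in ERK5-ko and 84.1% in MEK5DD cells. In Hs-578T its share was 26.5% in parental controls (20.7% and 32.4%), 58.6% in ERK5-ko (59.7% and 57.5%) and 29.3% in MEK5DD cells (32.3% and 26.2%). Both Hs-578T ERK5-ko libraries were thus above the 4 others of that line. FOS held 46.8% of the family in Hs-578T parental replicate 1 and 6.71% in replicate 2. FOSB was at most 4.01% in any library.

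JUND made up 59.2% of summed JUN family RPKM in MDA-MB-231 parental controls, 73.4% in ERK5-ko and 42.8% in MEK5DD cells. The JUN share ran the other way, 24.8%, 17.1% and 38.6%. In Hs-578T JUND was 39.1% in parental controls, 42.4% in ERK5-ko and 43.0% in MEK5DD cells. JUNB was 44.7%, 32.7% and 34.9% in the same groups. These shares depended on the length used. Scaled to the longest transcript, JUNB (38.7% and 41.4%) exceeded JUND (31.8% and 32.4%) in Hs-578T ERK5-ko and MEK5DD cells, and JUN (45.8%) exceeded JUND (32.2%) in MDA-MB-231 MEK5DD cells.

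**Figure D4:**
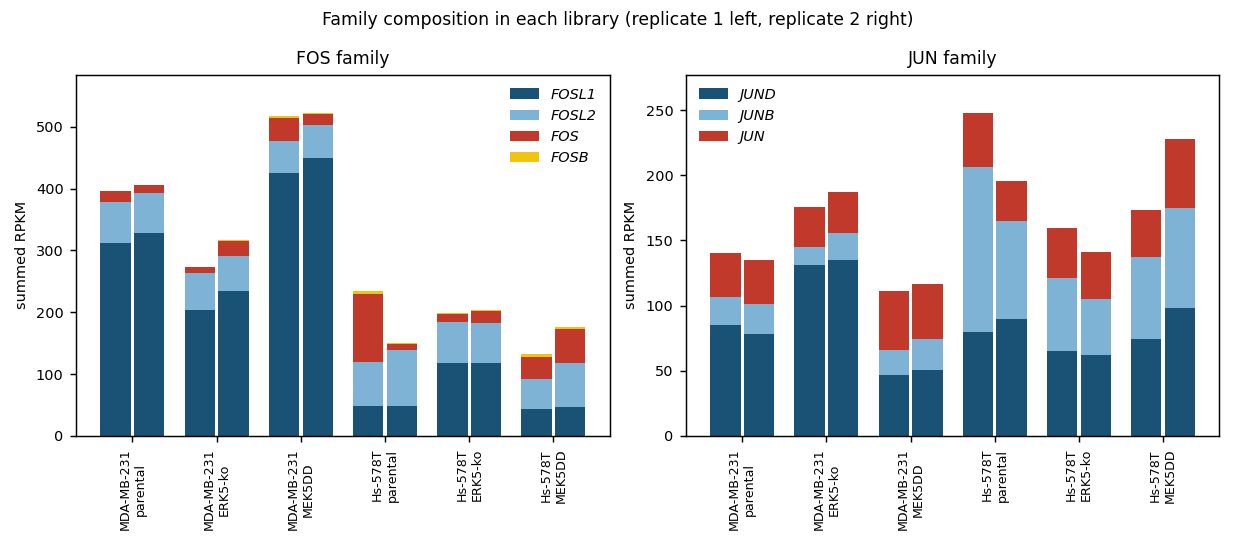
Summed RPKM of the FOS family (left) and JUN family (right) in each of the 12 libraries, with replicate 1 as the left bar and replicate 2 as the right bar of each group. FOSL1 fills most of each MDA-MB-231 bar and more than any other gene in Hs-578T ERK5-ko bars, and FOS is visible mainly in Hs-578T parental replicate 1 and the Hs-578T MEK5DD libraries.

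Counted over the set, 3 of 9 genes passed in MDA-MB-231 ERK5-ko against parental libraries (2 higher, 1 lower), where 17.3% of all tested genes did, and 1 was called against 3.87%. In Hs-578T ERK5-ko 5 of 9 passed (2 higher, 3 lower) against 39.4%, and 3 were called against 12.6%. In MDA-MB-231 MEK5DD 2 of 9 passed (1 higher, 1 lower) against 41.3%, and 0 were called against 13.9%. By limma at an unadjusted p under 0.05, 4 of the 9 passed there, JUN and EGR1 beside FOSL1 and JUND. The share of all tested genes at that looser limit was not computed, but it cannot be below the 41.3% at the adjusted one. This count thus shows no excess of the 9 genes. Limma-voom on recovered reads also called 0 of them. In Hs-578T MEK5DD 0 of 9 passed against 23.4%, and 0 were called against 4.38%. By limma at an unadjusted p under 0.05, 1 of the 9, FOSL2, passed there, where the share of all tested genes cannot be below 23.4%. Limma-voom called 0 of the 9. The median log2 fold change of the 9 genes in these 4 comparisons was -0.14, -0.39, 0.35 and -0.07, and that of all tested genes was -0.04, 0.01, -0.01 and -0.08. The comparisons of a line share their parental controls.

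Set directly against MEK5DD, 5 of 9 genes passed in MDA-MB-231 ERK5-ko against 55.0% of all genes, and 2 were called against 23.6%. In Hs-578T 4 of 9 passed against 50.0%, and 3 were called against 19.3%. FOSL1 was lower in ERK5-ko than MEK5DD in MDA-MB-231 (log2 -0.999, adjusted p = 2.91e-06) and higher in Hs-578T (1.40, adjusted p = 4.26e-07). JUND was higher in MDA-MB-231 (1.44, adjusted p = 1.71e-06) and lower in Hs-578T (-0.42, adjusted p = 0.0134). ATF3 was higher in both (0.32, adjusted p = 0.0217, and 0.74, adjusted p = 0.000149), and EGR1 was lower in both, as given above. The MDA-MB-231 value of ATF3 did not pass without any one of the 4 libraries compared (adjusted p between 0.0502 and 0.136). The Hs-578T value of JUND did not pass without ERK5-ko replicate 2 (adjusted p = 0.0889), without MEK5DD replicate 2 (0.0763) or with that line alone (0.0798).

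Between the parental controls of the lines 4 of 9 genes passed and all 4 were called, against 77.4% and 49.5% of all genes. FOSL1 and ATF3 were higher in MDA-MB-231, and JUNB and EGR1 were higher in Hs-578T (EGR1 log2 -2.06, adjusted p = 0.000431). EGR1 differed by -1.43 without Hs-578T parental replicate 1 (adjusted p = 0.00335). FOSB differed by -1.18 (adjusted p = 0.0631), and with the replicate block it passed (adjusted p = 0.0357), as did FOSL2 (-0.28, adjusted p = 0.0391). The ERK5-ko response differed between the lines for 2 of 9 genes, FOSL1 and JUND, against 39.8% of all genes, and both were called against 20.7%. The MEK5DD response differed for the same 2 genes, against 39.6%, and 0 were called against 22.2%. At an unadjusted p under 0.05 by limma EGR1 passed as well (3 of 9), where the share of all genes cannot be below 39.6%. Limma-voom called 0 of the 9.

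Other basic leucine zipper genes that can pair with AP-1 proteins included the ATF, CREB, BATF and MAF genes, of which 20 of 21 were tested. In MDA-MB-231 ERK5-ko libraries 2 passed, BATF3 higher (log2 fold change 0.76) and BATF lower. BATF was 0.671 RPKM in parental and listed at 0 in ERK5-ko libraries. In Hs-578T ERK5-ko 10 passed (6 higher, 4 lower), with MAFF (0.84), a small MAF protein, the most raised and BATF3 (-0.84) among those lower. In MDA-MB-231 MEK5DD 8 passed (4 higher, 4 lower), with CREB5 (0.93) and ATF4 (0.51) the most raised and JDP2 (-0.90), a repressor of AP-1, the lowest. In Hs-578T MEK5DD 6 passed (3 higher, 3 lower), with CREB5 (1.36) the most raised and NFE2L1 (-0.53) among those lower. In this order 10%, 50%, 40% and 30% of the list passed, against 17.3%, 39.4%, 41.3% and 23.4% of all tested genes.

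Other immediate early genes passed in both directions, with 23 of 25 tested. In MDA-MB-231 ERK5-ko 8 passed (5 higher, 3 lower). BTG2, an antiproliferative gene (0.83), and CYR61, a matricellular YAP target (0.49), were higher, and the Kruppel-like factors KLF4 (-0.64) and KLF10 (-0.63) were lower. In Hs-578T ERK5-ko 12 passed (7 higher, 5 lower), with CTGF (1.23) and SGK1 (1.15) higher and RHOB (-0.90) and BTG2 (-0.84) lower. In MDA-MB-231 MEK5DD 11 passed (8 higher, 3 lower), with GADD45B (1.56) and DUSP1 (1.11) higher and BTG2 (-1.42) and PHLDA1 (-0.93) lower. In Hs-578T MEK5DD 10 passed (7 higher, 3 lower), with EGR2 (1.42), a paralog of EGR1, and GADD45B (0.69) higher and NR4A2 (-0.55) and KLF4 (-0.54) lower. In this order 34.8%, 52.2%, 47.8% and 43.5% of the list passed, against 17.3%, 39.4%, 41.3% and 23.4% of all tested genes. The median log2 fold change of this list in MEK5DD libraries was 0.26 (MDA-MB-231) and 0.20 (Hs-578T), against -0.01 and -0.08 for all tested genes.

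Among 18 genes of upstream kinases and of serum response factor and its partners, 3 passed in MDA-MB-231 ERK5-ko, 9 in Hs-578T ERK5-ko, 4 in MDA-MB-231 MEK5DD and 4 in Hs-578T MEK5DD. These were 16.7%, 50.0%, 22.2% and 22.2% of the list, against 17.3%, 39.4%, 41.3% and 23.4% of all tested genes. MAP2K5, the gene engineered in the MEK5DD cells, is on this list and is counted among those that passed in both MEK5DD lines. ELK3, a ternary complex factor, was lower in MDA-MB-231 ERK5-ko (log2 fold change -0.71) and MEK5DD (-0.55) libraries, and MAPK3, the gene of ERK1, was higher in the former (0.33). MAPK3 was lower in Hs-578T ERK5-ko (-0.59, adjusted p = 0.000435) and MEK5DD (-0.38, adjusted p = 0.012) libraries. In Hs-578T ERK5-ko SRF was higher (0.77) and RPS6KA1, the gene of the kinase RSK1, was lower (-1.02). RPS6KA3, the gene of RSK2, was lower in MDA-MB-231 MEK5DD (-0.998). The EGR1 corepressors NAB1 (-0.58) and NAB2 (0.31) passed in MDA-MB-231 MEK5DD, and neither passed in the other 3 comparisons.

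Genes known as AP-1 targets, 16 of 19 tested, passed in both directions in MDA-MB-231 and in 1 direction in Hs-578T. In MDA-MB-231 ERK5-ko 5 passed (2 higher, 3 lower). IL6 rose from a mean of 10.1 to 28.04 RPKM (log2 fold change 1.42), and PLAU, the urokinase plasminogen activator, fell from 1168 to 462 RPKM (-1.33). In MDA-MB-231 MEK5DD 11 passed (6 higher, 5 lower), with the collagenase gene MMP1 rising from 1.35 to 128 RPKM (6.12) and VEGFA falling from 125 to 45.7 RPKM (-1.45). In Hs-578T ERK5-ko 11 passed and all 11 were higher, led by MMP3 (1.93) and SPP1 (1.14). In Hs-578T MEK5DD 9 passed and all 9 were higher, with CXCL8 (1.66) the most raised. The MEK5DD replicates of CXCL8 lay far apart, with a mean of 46.8 RPKM and an SD of 22.9. The median log2 fold change of the list was 0.60 and 0.45 in these Hs-578T comparisons, against 0.01 and -0.08 over all tested genes, and both used the same parental controls. In the order above, 31.25%, 68.75%, 68.75% and 56.25% of the list passed, against 17.3%, 41.3%, 39.4% and 23.4% of all tested genes. The list was chosen with results of these data known.

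The feedback genes of ERK1/2 signaling, the SPRY, SPRED, DUSP and ETV genes, passed mostly lower in MDA-MB-231 (5 of 11 in ERK5-ko, with 0 higher, and 6 in MEK5DD, with 1 higher). They passed mostly higher in Hs-578T (8 of 11 in ERK5-ko, with 7 higher, and 7 in MEK5DD, with 7 higher). In this order 45.5%, 54.5%, 72.7% and 63.6% of the list passed, against 17.3%, 41.3%, 39.4% and 23.4% of all tested genes. Both comparisons of a line used the same parental controls. Stress genes passed for 2, 3, 5 and 4 of 9 genes in the ERK5-ko cells of MDA-MB-231 and of Hs-578T and the MEK5DD cells of each, in that order. These were 22.2%, 33.3%, 55.6% and 44.4% of the list, against 17.3%, 39.4%, 41.3% and 23.4% of all tested genes. DDIT3 was higher in both MEK5DD lines (1.46 and 0.78). ATF3, itself a stress-induced gene, passed in the ERK5-ko libraries alone among these 4 comparisons.

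Likeness of pattern was measured by Pearson's r of log2(RPKM + 0.5), centred within each line, over 12 libraries and 12422 genes. These libraries are pairs from 6 groups, so r describes group differences and replicate differences together. The gene most like FOS was FOSB (0.89), followed by SFXN4 (0.87) and DDX56 (0.83). For FOSB they were PDCD2L, PSMB4 (both 0.92) and GEMIN7 (0.90), and for EGR1 PTP4A2 (0.93), RP11-872D17.8 (0.93) and DDX56 (0.92). EGR1 had r of 0.74 with both FOS and JUNB and 0.71 with JUN. FOSL1 was most like EDA, DONSON and CDC25A (each 0.98), and JUND was most like INADL, CYP1B1 and SLC35E2B (each 0.98). The r between FOSL1 and JUND was -0.75. ATF3 was most like STOM (0.96), LIMA1 and ZDHHC21 (both 0.95). FOSL2 was most like GLG1 (0.95) and ANTXR1 (0.94). JUN was most like PLEKHO2, SLC15A4 (both 0.88) and FJX1 (0.86), and JUNB was most like RBM14-RBM4 (0.94), RBM4 (0.92) and TEAD2 (0.91).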

How the data were processed

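RNA was extracted with RNeasy, and 12 stranded mRNA libraries were sequenced. The submitters' processing notes name Trimmomatic 0.32, TopHat2 2.1.1, R 3.3.1, DESeq2 1.12.4 and GRCh38, and the authors deposited RPKM per gene. Because each RPKM value is a whole multiple of what 1 read is worth, whole reads were recovered for 32152 genes (100.0%, within 0.01 reads). Recovered totals were 20248162 to 27791195 reads a library. Protein-coding genes with RPKM of at least 0.5 in 2 libraries or more (13737) were tested on log2(RPKM + 0.5) with limma 3.58.1 in R 4.3.3. The fit had 6 group means and 6 residual degrees of freedom, with Benjamini-Hochberg adjustment within each of the 9 comparisons. A fold change on this scale understates that of low genes. Comparisons within a line share libraries.

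The deviations of libraries with the same replicate number correlated in all 6 pairs of groups of a line (0.107 to 0.541), so the number was also fitted as a block (4 residual degrees of freedom), which is given beside a result where it changed a call. Other alternatives were the pseudocount, the filter, median-ratio and quantile scaling, limma-voom on recovered reads, fits to 1 cell line, no fold threshold, and leaving out each library. The 9 genes, the gene lists (basic leucine zipper partners, other immediate early genes, upstream kinases and serum response factors, EGR1 corepressors, AP-1 targets, ERK1/2 feedback, stress, identity and other cell types) and the tests were chosen with earlier results of these data known. Named from each list were up to 2 genes a direction with the largest change among those that passed, and for each member the 3 genes of highest r. Some genes that this rule names are not reported here. Promoter windows came from RefSeq on GRCh38.p14, and annotation from GENCODE 29, which held 31584 of the gene identifiers (98.2%). Of the columns in the table, none was without a sample. The script was tested on simulated data.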

Additional observations from a re-analysis of the deposited data

Results flagged for a closer look

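The difference in response between the cell lines passed its own test for FOSL1 and JUND. For FOSL1 the ERK5-ko response was lower in MDA-MB-231 than in Hs-578T by a log2 difference of -1.82 (limma, adjusted p = 2.72e-06), and the MEK5DD response was higher by 0.57 (adjusted p = 0.00443). For JUND the ERK5-ko response was higher in MDA-MB-231 by 1.117 (adjusted p = 0.000455) and the MEK5DD response was lower, by -0.75 (adjusted p = 0.00529). MAP2K5 RNA rose by 3.77 (log2) in MDA-MB-231 MEK5DD but by 0.50 in Hs-578T MEK5DD libraries, and its part in these MEK5DD differences was not tested. Groups of 2 libraries were too small for a test of single libraries that stand apart.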

How the results depend on the processing

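FOSL1 kept every test it passed, and JUND kept its MDA-MB-231 ones and both differences between lines, under all settings tried. With no fold threshold the called members were 3 (MDA-MB-231 ERK5-ko), 5 (Hs-578T ERK5-ko), 2 (MDA-MB-231 MEK5DD), 5 (MDA-MB-231 ERK5-ko against MEK5DD) and 2 (MEK5DD response between lines). EGR1 was the 1 called member in MDA-MB-231 MEK5DD with a pseudocount of 0.1, a filter of RPKM 1, median-ratio or quantile scaling, or 1 cell line. Median-ratio and quantile scaling turned the sign of FOSB in MDA-MB-231 ERK5-ko (0.011 and 0.067), JUN in the MEK5DD response between lines (-0.0039 and -0.0016) and ATF3 in Hs-578T MEK5DD (0.017 and 0.012), and quantile scaling that of JUNB in MDA-MB-231 MEK5DD (0.018). None of these passed. Those scalings shifted the median of all genes by -0.11 and -0.11 (Hs-578T ERK5-ko against MEK5DD) and by -0.18 and -0.15 (between parental controls). Beyond the FOSL2 and FOSB values given in the report, the replicate block changed no other call of a member (FOSL2 in Hs-578T MEK5DD, -0.43, adjusted p = 0.0169).

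Leaving out 1 library at a time, called members ranged from 1 to 1 (MDA-MB-231 ERK5-ko), 2 to 6 (Hs-578T ERK5-ko), 0 to 2 (each MEK5DD line against parental), 2 to 3 and 2 to 4 (ERK5-ko against MEK5DD in MDA-MB-231 and Hs-578T), 4 to 6 (parental controls), 2 to 6 (ERK5-ko response between lines) and 0 to 3 (MEK5DD response between lines). The share of all tested genes called under each omission is not given here, and an omission also changes the shared spread. These counts thus cannot show an excess or a lack of called genes among the members. In Hs-578T ERK5-ko against parental, log2 fold changes ran from -2.80 to 0.58 (FOS), -1.44 to 0.66 (FOSB) and -0.13 to 0.26 (JUN). In Hs-578T MEK5DD they ran from -1.29 to 2.09 (FOS), -0.47 to 1.63 (FOSB), -0.85 to 0.41 (EGR1) and -0.18 to 0.21 (JUND). In MDA-MB-231 they ran from -0.58 to 0.70 (FOS) and -0.50 to 0.43 (FOSB) for ERK5-ko and from -0.22 to 0.083 (JUNB) for MEK5DD. In Hs-578T ERK5-ko against MEK5DD they ran from -0.11 to 0.42 (FOSL2) and -0.50 to 0.039 (JUN). Between parental controls they ran from -2.83 to 0.56 (FOS), -0.26 to 0.14 (JUN) and -0.14 to 0.027 (JUND). For the ERK5-ko response between lines they ran from -0.52 to 2.86 (FOS), -0.70 to 1.40 (FOSB) and -0.071 to 0.28 (FOSL2), and for the MEK5DD response from -1.32 to 2.07 (FOS), -0.70 to 1.40 (FOSB), -0.15 to 0.38 (FOSL2) and -0.21 to 0.33 (JUN). The cause of these changes was not tested beyond the library left out. FOSB, with 26 to 337 reads a library, is the member that depth limits most.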
